A study of Mus musculus with 16 samples.

Results

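The genes described here are 10 members of the family of ADAMTS proteases and ADAMTS-like proteins, namely Adamts1, Adamts4, Adamts5, Adamts9, Adamts12, Adamts15, Adamts18, Adamts20, Adamtsl1 and Adamtsl3. They were chosen by name, with earlier results of these data known, among them the values of Adamts9 after 6 h of treatment. Differences between treatments are therefore given for them as descriptions, with no p-value, and where their calls in the fit over all genes are counted, nothing is read from the counts. The array carried 27 probes for the 10 genes out of 60273 probes in all, 14 of them under the gene's symbol and 13 under a transcript accession that RefSeq assigns to the gene. With a signal well above the array's background in every sample of at least 1 group, 9 probes of 7 genes were kept, among 31095 genes kept in total.

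ADAMTS proteins are secreted zinc proteases that carry a disintegrin-like domain and thrombospondin type 1 repeats and act on the extracellular matrix. Several of them, including Adamts1, Adamts4, Adamts5, Adamts9 and Adamts15, cut large proteoglycans such as versican and aggrecan, and in the embryonic heart the removal of versican from the cardiac jelly and the valve cushions depends on such enzymes. ADAMTS-like proteins share the repeats but lack the protease domain, and bind to matrix components.

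Transcripts were measured in differentiating mESCs, cultures of the mouse embryonic stem cell line CGR8 with a GFP reporter under the promoter of the cardiac myosin gene Myh6 (CGR8-Myh6-GFP), which were grown as monolayers towards cardiomyocytes. On day 4 of differentiation the cultures received the vehicle DMSO, the hawthorn extract WS1442 at 0.25 mg/mL, or its MeOH eluate, a fraction of that extract, at 0.1 mg/mL, and RNA was taken after 6 h or 24 h. At each time there were 2 DMSO samples, 3 WS1442 samples and 3 MeOH eluate samples, which gives 16 samples in 6 groups, each on its own 1-colour array. All groups shared the line, the reporter and the protocol, so that the values describe 1 line. The labels do not say that the samples were separate cultures, so the spread between them may be technical. The doses of WS1442 and MeOH eluate differed, and both were compared with the same DMSO samples of their time.

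Between 55.1% and 63.0% of the gene spots of an array were well above background, no gene spot was saturated, and RNA integrity numbers lay between 8.6 and 10. The 8 samples of a time shared 1 slide, so levels at 6 h and 24 h cannot be told apart from the slide, and only differences from DMSO on the same slide are compared across times. On each array, the 6 pluripotency markers, the 6 primitive streak and mesoderm markers and 8 of 9 cardiac markers had signals well above background. The remaining cardiac marker had no kept probe, so its signal is not described. RNA came from whole wells, in which fewer cells of a type and less RNA per cell cannot be told apart.

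Adamts9 gave the clearest lower values of the family, and it did so on several probes. Their sequences are shown because the probes differ in how far, and at 24 h in which direction, they moved. They are printed as spotted, 5′ to 3′, in lower case with no stretch singled out.
Adamts9 probe NM_175314.3: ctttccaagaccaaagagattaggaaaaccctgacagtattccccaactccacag
Adamts9 probe ENSMUST00000130314: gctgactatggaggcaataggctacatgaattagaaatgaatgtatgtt
Adamts9 probe ENSMUST00000136751: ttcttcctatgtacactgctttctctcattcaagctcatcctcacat
The first probe has 55 bases and is annotated to the RefSeq transcript of the gene. The second has 49 bases and the third 47 bases, and both are annotated to Ensembl transcripts on the minus strand of chromosome 6, at chr6:92795656-92795715 and chr6:92876348-92876407 in the build mm9. Each of these intervals, as the array's annotation gives them, spans 60 bases, more than the sequence printed, and which bases of the interval the sequence covers was not analysed here. The interval starts lie 80.7 kb apart. No pair of the probes shares a run of more than 5 bases, so they read separate stretches. In which exon, intron or UTR each lies was not analysed here.

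At 6 h the brightest Adamts9 probe, NM_175314.3, had log2 signals of 7.25 and 7.61 with DMSO, 6.94, 6.77 and 7.01 with WS1442, and 6.18, 6.15 and 6.42 with MeOH eluate. The 3 groups did not overlap, with DMSO highest and MeOH eluate lowest. The log2 change from DMSO was -0.53 ± 0.13 (SE) with WS1442 and -1.18 ± 0.13 (SE) with MeOH eluate, a signal 1.44-fold and 2.27-fold lower. Without DMSO 6 h replicate 2 the change with WS1442 was -0.35. With a normexp background correction, which here adds an offset of 50 to each intensity, the changes were -0.35 and -0.74. Such an offset by itself draws the log2 changes of dim probes towards 0. The normexp values given here and below therefore do not show how far the changes depend on background.

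At 24 h the same probe had log2 signals of 8.13 and 8.08 with DMSO, 7.75, 7.88 and 7.90 with WS1442, and 7.56, 7.37 and 7.15 with MeOH eluate. The order of the groups was as at 6 h, again without overlap. The changes were -0.26 ± 0.13 (SE; 95% confidence interval -0.55 to 0.03) with WS1442 and -0.74 ± 0.13 (SE; -1.03 to -0.46) with MeOH eluate. Set directly against WS1442, MeOH eluate was lower by a log2 difference of -0.66 (95% confidence interval -0.91 to -0.40) at 6 h and of -0.48 (-0.74 to -0.22) at 24 h, at unequal doses.

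The second Adamts9 probe, ENSMUST00000130314, had log2 signals at 6 h of 6.66 and 6.81 with DMSO, 5.68, 5.50 and 5.86 with WS1442, and 4.61, 4.94 and 4.53 with MeOH eluate. At 24 h it had 7.25 and 7.02 with DMSO, 6.43, 6.35 and 6.27 with WS1442, and 5.65, 5.75 and 5.48 with MeOH eluate. The groups stood in the same order as on the brightest probe and were apart at both times. The log2 changes were larger, at -1.05 and -2.04 at 6 h and -0.78 and -1.51 at 24 h for WS1442 and MeOH eluate (SE 0.15 each), so that the signal with MeOH eluate was 4.11-fold lower at 6 h and 2.84-fold lower at 24 h.

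The third Adamts9 probe, ENSMUST00000136751, behaved differently at 24 h. At 6 h its log2 signals were 4.81 and 4.89 with DMSO, 3.58, 3.79 and 3.87 with WS1442, and 2.21, 3.04 and 3.22 with MeOH eluate. WS1442 replicate 1 and all 3 MeOH eluate samples were not well above background there, so the signal with MeOH eluate was at least 2.35-fold lower than with DMSO. At 24 h its log2 signals were 5.14 and 4.82 with DMSO, 5.20, 5.31 and 5.56 with WS1442, and 4.86, 4.51 and 4.36 with MeOH eluate. All 3 WS1442 samples now lay above DMSO, while the MeOH eluate samples overlapped with DMSO. The change at 24 h was 0.38 (95% confidence interval -0.21 to 0.97) with WS1442 and -0.40 (-0.99 to 0.19) with MeOH eluate, against -1.10 (-1.69 to -0.51) with WS1442 at 6 h. A further Adamts9 probe, ENSMUST00000125490, was well above background in none of the 16 samples.

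**Figure D1:**
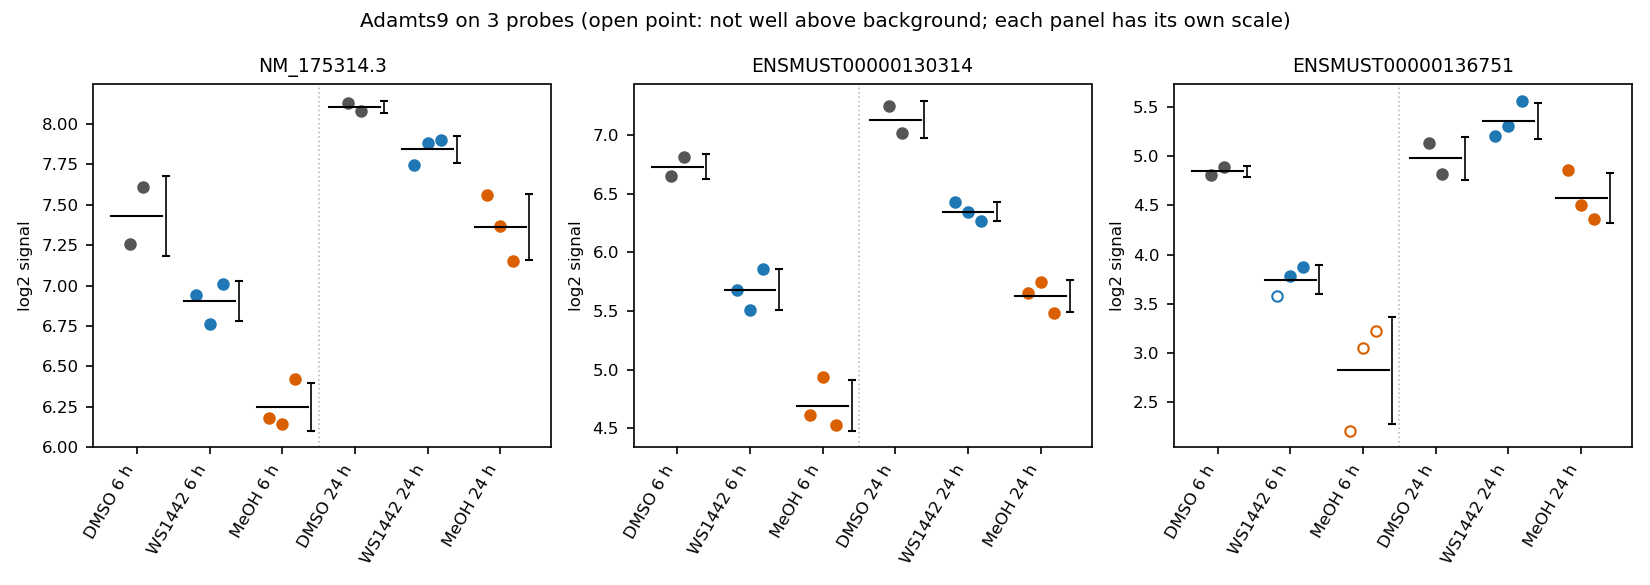
Log2 signal (quantile normalized, y axis) of the 3 kept Adamts9 probes by treatment and time (x axis), with 1 point per array, a line at the mean and a bar for the SD beside it, open points where the probe was not well above background, and a scale of its own in each panel. The first and second probes stand in the order DMSO, WS1442, MeOH eluate at both times, while on the third the 3 WS1442 samples at 24 h, between 5.20 and 5.56, lie above both DMSO samples.

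Adamts1, a protease of versican and aggrecan that is known to be induced in ovulation and inflammation, was higher on every treated array. At 6 h its log2 signals were 7.62 and 7.63 with DMSO, 7.95, 8.37 and 8.37 with WS1442, and 9.02, 9.02 and 9.05 with MeOH eluate. At 24 h they were 7.86 and 7.83 with DMSO, 8.65, 8.56 and 8.40 with WS1442, and 8.50, 8.41 and 8.44 with MeOH eluate. The 3 groups were apart at 6 h, with MeOH eluate highest, whereas the treated groups overlapped at 24 h. The change from DMSO at 6 h was 0.60 ± 0.11 (SE) with WS1442 and 1.40 ± 0.11 (SE) with MeOH eluate, which was 2.64-fold. At 24 h it was 0.69 and 0.61 (SE 0.11 each). MeOH eluate exceeded WS1442 by 0.80 (95% confidence interval 0.59 to 1.01) at 6 h, and the difference was -0.09 (-0.29 to 0.12) at 24 h. The change with MeOH eluate was smaller at 24 h than at 6 h by a log2 difference of -0.80 (95% confidence interval -1.12 to -0.47), and for WS1442 the difference between times was 0.09 (-0.23 to 0.42). Its mean thus lay on the other side of DMSO from that of the brightest Adamts9 probe in each comparison, but on the same side as the third Adamts9 probe with WS1442 at 24 h.

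The promoters of Adamts1 and Adamts9 are shown because these genes had the largest changes among the members, in opposite directions. Each is the 250 bases before the RefSeq start of the gene (build GRCm38.p6), read on the gene's strand, with capitals for TATAAA, the core of a TATA box, and for GGGCGG, a GC box, on either strand.
Adamts1 promoter, chr16:85803114-85803363, minus strand: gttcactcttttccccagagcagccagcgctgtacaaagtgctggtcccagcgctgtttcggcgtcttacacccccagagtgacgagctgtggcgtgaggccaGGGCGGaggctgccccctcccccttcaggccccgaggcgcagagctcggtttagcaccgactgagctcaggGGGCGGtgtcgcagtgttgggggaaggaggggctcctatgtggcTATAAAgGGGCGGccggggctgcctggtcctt
Adamts9 promoter, chr6:92943535-92943784, minus strand: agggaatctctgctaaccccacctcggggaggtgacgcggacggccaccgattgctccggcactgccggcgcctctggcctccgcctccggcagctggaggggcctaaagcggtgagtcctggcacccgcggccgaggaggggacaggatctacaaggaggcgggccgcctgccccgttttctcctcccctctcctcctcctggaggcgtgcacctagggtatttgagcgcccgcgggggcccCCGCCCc
The Adamts1 window holds 1 TATAAA, beginning 32 bases before the start, and 3 GGGCGG, beginning 147, 76 and 25 bases before it, none of which overlap. The Adamts9 window holds no TATAAA and 1 GGGCGG, on the opposite strand, 7 bases before the start. Of 32851 promoters searched on both strands, 12.4% hold TATAAA and 32.7% hold GGGCGG. The AP-1 motif, TGANTCA, is in 6.75% of them and in neither window. Of the members, 6 of 10 had a promoter in the table used. A match in these letters is a description only.

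Adamts5, a strong aggrecan and versican protease that takes part in the remodelling of heart valves, was a dimmer transcript. At 6 h it had log2 signals of 4.95 and 4.94 with DMSO, 4.95, 4.95 and 5.04 with WS1442, and 5.23, 5.60 and 5.50 with MeOH eluate. The MeOH eluate samples were above all others at that time, by 0.50 (95% confidence interval -0.06 to 1.07) over DMSO. At 24 h the DMSO samples were far apart, at 5.77 and 4.46, beside 5.66, 5.57 and 5.40 with WS1442 and 5.83, 5.96 and 5.77 with MeOH eluate. The values at 24 h turned on 1 DMSO sample. The change with WS1442 was 0.43, but 1.10 without DMSO 24 h replicate 1 and -0.22 without DMSO 24 h replicate 2, and that with MeOH eluate was 0.74, 1.41 and 0.09.

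Adamtsl1, an ADAMTS-like matrix protein also called punctin, had log2 signals at 6 h of 6.62 and 7.14 with DMSO, 7.26, 7.10 and 6.38 with WS1442, and 7.54, 7.47 and 7.75 with MeOH eluate. At 24 h it had 7.40 and 7.61 with DMSO, 7.87, 8.06 and 8.23 with WS1442, and 7.77, 7.60 and 7.77 with MeOH eluate. The group that stood above DMSO without overlap was MeOH eluate at 6 h and WS1442 at 24 h. The changes were 0.71 (95% confidence interval 0.25 to 1.17) and 0.55 (0.09 to 1.01), and the other pair were 0.03 with WS1442 at 6 h and 0.21 with MeOH eluate at 24 h. Without DMSO 6 h replicate 1 the change with MeOH eluate at 6 h was 0.45.

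Adamts15, another versican protease, showed small changes on a tight spread. Its log2 signals at 6 h were 6.38 and 6.49 with DMSO, 6.70, 6.62 and 6.64 with WS1442, and 6.73, 6.76 and 6.76 with MeOH eluate. Both treatments were above DMSO at 6 h, by 0.22 (95% confidence interval 0.03 to 0.42) and 0.32 (0.12 to 0.52). At 24 h it had 6.47 and 6.60 with DMSO, 6.57, 6.70 and 6.62 with WS1442, and 6.87, 6.68 and 6.76 with MeOH eluate, and MeOH eluate alone was above DMSO without overlap, by 0.23 (0.03 to 0.43).

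Adamts4, an aggrecan protease, had 6.14 and 6.23 with DMSO, 6.00, 6.34 and 6.36 with WS1442, and 6.20, 6.28 and 6.12 with MeOH eluate at 6 h. At 24 h its log2 signals were 7.08 and 6.86 with DMSO, 6.98, 6.73 and 6.69 with WS1442, and 7.18, 7.13 and 7.10 with MeOH eluate. The groups overlapped except for MeOH eluate at 24 h, which was above both of the other groups, by 0.16 (95% confidence interval -0.11 to 0.43) over DMSO and 0.33 (0.09 to 0.57) over WS1442. The first of these was 0.27 without DMSO 24 h replicate 1 and 0.05 without DMSO 24 h replicate 2. A second Adamts4 probe pair for another transcript was not kept. Adamts12, a protease of cartilage oligomeric matrix protein, had 6.97 and 6.69 with DMSO, 6.68, 6.64 and 6.53 with WS1442, and 6.62, 6.53 and 6.84 with MeOH eluate at 6 h. At 24 h it had 5.79 and 6.05 with DMSO, 5.60, 5.76 and 5.94 with WS1442, and 5.71, 5.50 and 5.84 with MeOH eluate. Its changes lay between -0.23 and -0.15, and every interval included 0. They moved with single DMSO samples, that with MeOH eluate at 6 h to -0.03 without DMSO 6 h replicate 1 and that with WS1442 at 24 h to -0.02 without DMSO 24 h replicate 2.

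The remaining members had no kept probe. Adamts20, the close relative of Adamts9, and Adamtsl3 each had 3 probes, none of which was well above background in a single sample. Adamts18 was well above background on 4 of 16 arrays with 1 of its 3 probes, scattered over WS1442 and MeOH eluate at 6 h and DMSO and MeOH eluate at 24 h, on 1 array with another and on no array with the last. No level or change is given for these genes.

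**Figure D2:**
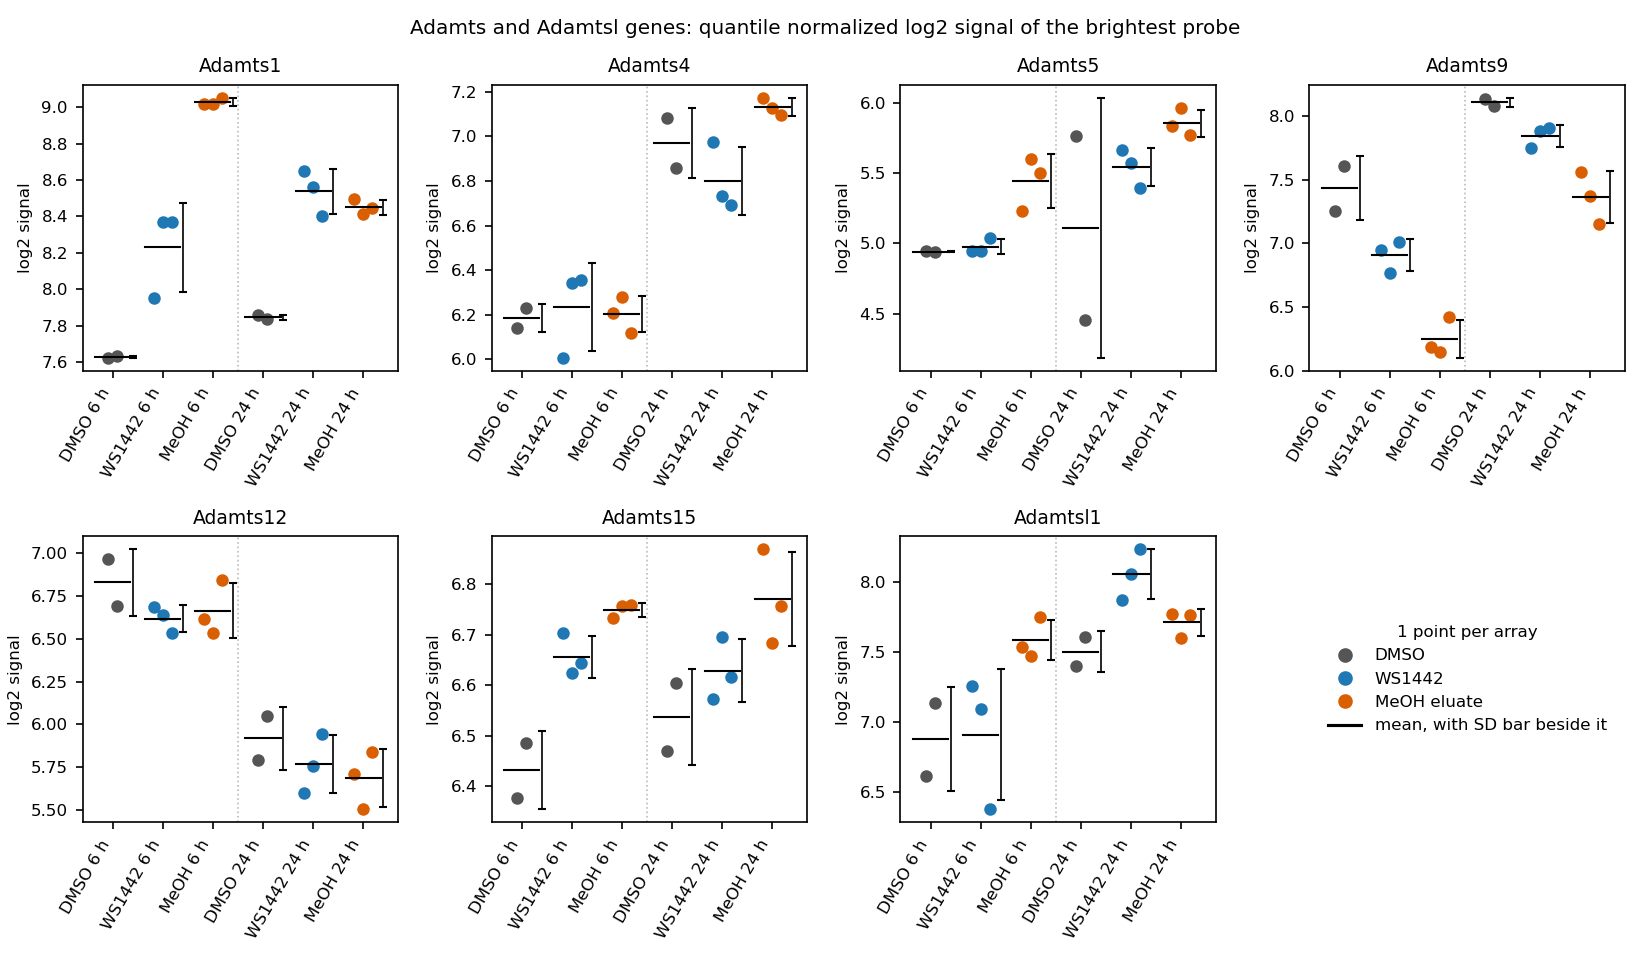
Log2 signal (quantile normalized, y axis) of the brightest probe of each of the 7 measured genes by treatment and time (x axis), with 1 point per array, a line at the mean and a bar for the SD beside it. Each panel has its own scale. In Adamts1 all treated samples lie above DMSO and in Adamts9 all lie below, and in Adamts5 the DMSO samples at 24 h are split between 5.77 and 4.46.

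Counted over the 7 genes by their brightest probe, at Benjamini-Hochberg adjusted p-values under 0.05 over all genes (limma), 2 members were called with WS1442 at 6 h, beside 5.3% of all genes. They were Adamts1, higher, and Adamts9, lower. With MeOH eluate at 6 h 4 were called, beside 16.9% of all genes, namely Adamts1, Adamts15 and Adamtsl1, higher, and Adamts9, lower. At 24 h 1 was called with WS1442, Adamts1, beside 24.5% of all genes, and 2 with MeOH eluate, Adamts1 and Adamts9, beside 17.9%. Between the treatments 3 members were called at 6 h, beside 12.2% of all genes, and 1, Adamts9, at 24 h, beside 14.3%. On any kept probe instead of the brightest, Adamts9 was also called with WS1442 at 24 h, through ENSMUST00000130314. At the limits of the study, a change of more than 2-fold with an unadjusted p-value under 0.05, 2 members passed with MeOH eluate at 6 h, Adamts1 and Adamts9, beside 2.1% of all genes. By brightest probe 0 passed with WS1442 at 6 h, beside 0.438% of all genes, and 0 at 24 h with WS1442 (2.04%) or MeOH eluate (2.93%). Adamts9 did pass on other kept probes, with WS1442 at 6 h on ENSMUST00000130314 and ENSMUST00000136751 and with MeOH eluate at 24 h on ENSMUST00000130314. Of the differences between the effects at 24 h and 6 h, 0 were called by brightest probe for WS1442, beside 12.4% of all genes, where Adamts9 was called on ENSMUST00000136751 alone, and 1, Adamts1, for MeOH eluate, beside 7.51%.

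Groups that did not overlap with DMSO were seen in 5 of 7 members with WS1442 at 6 h, beside 35.5% of all genes, and in 5 with MeOH eluate at 6 h, beside 50.1%. At 24 h there were 3 with WS1442, beside 51.1%, and 5 with MeOH eluate, beside 43.4%. The treated groups were apart from each other in 5 members at 6 h, beside 30.9% of all genes, and in 4 at 24 h, beside 36.1%. The median change of the 7 members was 0.04, 0.32, 0.09 and 0.21 in these comparisons, and that of all genes -0.01, 0.00, 0.04 and 0.01.

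**Figure D3:**
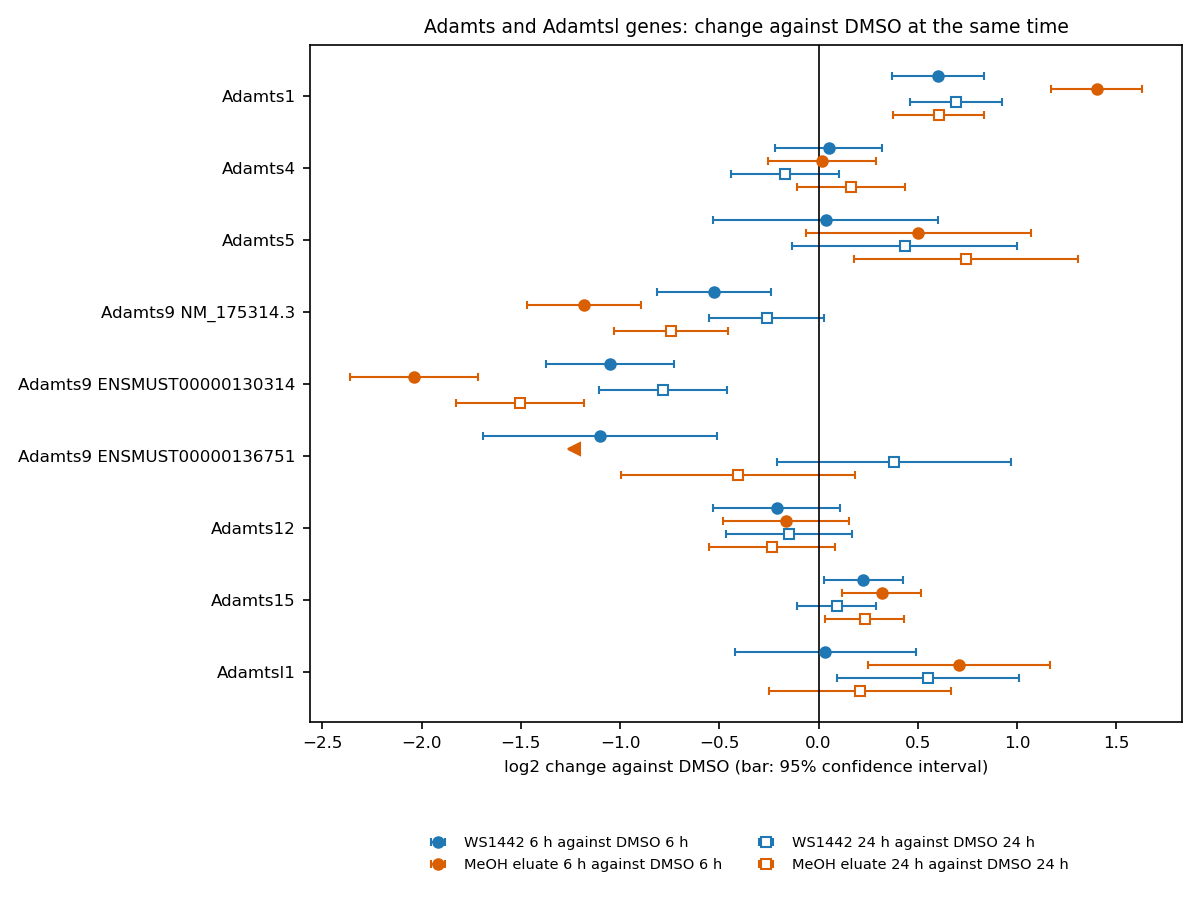
Log2 change from DMSO of the same time (x axis) for the kept probes of the 7 genes (y axis), with 95% confidence intervals from limma as bars, filled circles for 6 h and open squares for 24 h, blue for WS1442 and orange for MeOH eluate. An arrowhead without a bar marks the bound of the third Adamts9 probe with MeOH eluate at 6 h. Adamts1 lies to the right in all 4 comparisons, with the MeOH eluate at 6 h farthest out at 1.40, and the first and second Adamts9 probes lie to the left in all 4.

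The genes with the pattern most like that of the brightest Adamts9 probe were sought among all genes. The measure was the Pearson correlation over the 16 arrays of values centred on DMSO of their time. The closest genes were Gata6 (r = 0.957), a transcription factor of endoderm and heart, Nin (r = 0.956), which encodes the centrosomal protein ninein, and Slc25a28 (r = 0.955), a mitochondrial iron carrier. Next came Lefty2 (r = 0.951), a secreted inhibitor of Nodal, and Nmd3 (r = 0.950), an export factor of the large ribosomal subunit. The arrays share treatment groups and a normalization, and fall into those groups, so the coefficients are a description. Gata6 changed with WS1442 by -0.62 at 6 h and -0.35 at 24 h, and with MeOH eluate by -1.79 and -1.48. Lefty2 gave -0.69 and -0.67 for the extract and -1.71 and -1.06 for the eluate, whereas those of Nmd3 lay between -0.29 and -0.06.

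Markers of the primitive streak and mesoderm, the cells of the embryo from which the heart forms, differed in part between the same groups. The summed signal of 6 such genes (T, Mixl1, Eomes, Mesp1, Kdr, Pdgfra) was 3861 to 3873 with DMSO, 2752 to 3054 with WS1442 and 1933 to 2034 with MeOH eluate at 6 h, and 3228 to 3250, 2615 to 2740 and 2104 to 2331 at 24 h. Mixl1 fell by 0.99 and 2.39 at 6 h and by 0.47 and 1.20 at 24 h with WS1442 and MeOH eluate (limma, Benjamini-Hochberg adjusted p = 3.11e-06, 2.63e-11, 0.000226 and 5.12e-08). Eomes fell by 0.39 and 0.91 at 6 h and by 0.74 with MeOH eluate at 24 h (limma, adjusted p = 0.0227, 1.11e-05 and 4.65e-05). T fell by 1.29 with MeOH eluate at 6 h (limma, adjusted p = 2.00e-06). Beside 5.3%, 16.9%, 24.5% and 17.9% of all genes, 2, 3, 2 and 3 of the 6 were called in the 4 comparisons with DMSO, all lower. At 6 h others lay above DMSO without passing the test, Mesp1 by 0.16 with WS1442 and 0.14 with MeOH eluate, Pdgfra by 0.41 and 0.05, and Kdr by 0.08 with MeOH eluate, so that 2 and 3 of the 6 were higher. At 24 h all 6 means were lower with each treatment. Mesp1 fell there by 0.66 with WS1442 and 0.48 with MeOH eluate (limma, adjusted p = 0.00363 and 0.0284). Over all lists of cell types, 3, 11, 15 and 13 of the 37 markers tested were called, beside the same shares of all genes. The 8 cardiac markers measured had a summed signal at 24 h of 1371 to 1377 with DMSO, 1111 to 1242 with WS1442 and 742 to 877 with MeOH eluate. Singly they went both ways. With WS1442 at 24 h, 4 were higher and 4 lower, with a median of -0.07. Mef2c, a transcription factor of cardiac progenitors, rose by 0.48 (limma, adjusted p = 0.0155), and Gata4, Hand2 and Tnnt2 fell by 0.72, 0.49 and 0.35 (limma, adjusted p = 0.000971, 0.0167 and 0.0457). With MeOH eluate at 24 h, 2 were higher and 6 lower, and the 4 called, Gata4, Hand2, Isl1 and Tnnt2, were lower, beside 17.9% of all genes called. The neuroectoderm markers Sox1, Pax6 and Nes had a summed signal at 24 h of 2578 to 2604 with DMSO, 4152 to 4694 with WS1442 and 3408 to 4169 with MeOH eluate, and the last of the 4 genes of that list, Neurod1, had no kept probe. Singly, with WS1442 and MeOH eluate, Sox1 changed by 0.41 and 0.14, Pax6 by 0.78 and 0.82 and Nes by 0.78 and 0.57. Of the 3, 3 and 2 were called, beside 24.5% and 17.9% of all genes, Sox1 with MeOH eluate not. With DMSO at 24 h, 2 of the 3 were well above background on every array. The part of these cell types in the values of Adamts9 and Adamts1 was not tested.

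The other genes of the family are 16, of which 15 were measured. Against DMSO, 1 of the 15 was called for WS1442 at 6 h and 2 for MeOH eluate, beside the 5.3% and 16.9% of all genes, and at 24 h 1 and 0, beside 24.5% and 17.9%. All were higher. The calls fell on the procollagen N-proteinases Adamts3 and Adamts14, and on Adamtsl5.

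Adamts3, which also activates the lymphatic growth factor VEGF-C, had log2 signals at 24 h of 8.06 and 8.34 with DMSO, 9.06, 9.37 and 9.52 with WS1442, and 8.54, 8.37 and 8.43 with MeOH eluate. It rose by 1.12 with WS1442 at 24 h (SE 0.13, limma, adjusted p = 5.64e-05), and no such rise was seen with the MeOH eluate, which lay -0.87 from WS1442 (adjusted p = 0.000408, limma) at the other dose. At 6 h its changes were 0.08 and 0.40, neither past the threshold. Adamts14 had 4.95 and 5.38 with DMSO, 5.82, 5.51 and 6.06 with WS1442, and 6.12, 6.18 and 6.44 with MeOH eluate at 6 h. It rose by 0.63 and 1.08 at 6 h (SE 0.17, limma, adjusted p = 0.0398 and 0.00051), and at 24 h its changes were 0.37 and -0.14, not past the threshold. The offset of 50 in the normexp correction draws the changes of so dim a probe towards 0. Under the normexp correction its changes at 6 h were 0.25 and 0.45, and the call with WS1442 was lost in 11 of the 16 fits that left out 1 sample, DMSO 6 h replicate 1 (where the change was 0.41), WS1442 6 h replicates 1 and 3 and samples of other groups among them. The call with MeOH eluate was kept in all 16. Adamtsl5 rose by 0.31 with MeOH eluate at 6 h (limma, adjusted p = 0.0495), and its second kept probe gave 0.95 (adjusted p = 0.026, limma). The first of these calls was lost in 13 of the 16 fits that left out 1 sample, and the value lay between 0.26 and 0.63 over all alternatives. At 24 h, 14 of the 15 genes had a higher mean with WS1442 than with DMSO and 12 with MeOH eluate. Their medians were 0.22 and 0.24, beside 0.04 and 0.01 over all genes. The share of all genes with a higher mean was not counted, and all genes were compared with the same DMSO samples. Nothing about the family is therefore read from these directions.

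Of 34 genes for substrates and partners of these proteases 29 were measured. Against DMSO at 6 h, 2 of the 29 were called for WS1442 and 6 for MeOH eluate, beside 5.3% and 16.9% of all genes, and at 24 h 11 and 7, beside 24.5% and 17.9%. Nothing particular to the list is read from these counts. Among the 15 substrates and genes of the hyaluronan matrix the 4 counts in this order were 0, 3, 6 and 3, and among the 14 inhibitors, activators, cofactors and modifiers 2, 3, 5 and 4. A total of 17 genes were called at least once, and the 8 with the largest changes are described. The counts among the 29 moved when single samples, DMSO samples among them, were left out, and the cause was not tested.

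Among the substrates and the hyaluronan matrix, Thbs1 moved most. Thbs1, thrombospondin 1, which Adamts1 can cut, rose at 24 h by 0.75 under WS1442 and 0.93 under MeOH eluate (SE 0.09, limma, adjusted p = 4.47e-05 and 3.96e-06), from 10.50 and 10.35 with DMSO to 11.15, 11.19 and 11.19 and to 11.34, 11.22 and 11.50. At 6 h its changes were -0.26 and 0.09, not past the threshold. Has2, the hyaluronan synthase of the embryonic heart, fell by 0.56 with MeOH eluate at 6 h and by 0.41 and 0.39 with WS1442 and MeOH eluate at 24 h (limma, adjusted p = 0.00459, 0.0178 and 0.0318), calls that were lost in 1, 2 and 5 of the 16 fits with 1 sample left out. Hapln3, a link protein between hyaluronan and proteoglycans, fell by 0.53 with MeOH eluate at 6 h (limma, adjusted p = 0.016). Its change lay between -0.63 and -0.21 over all alternatives, and the call was lost in 1 of the 16 fits. Bcan, brevican, rose by 0.41 with WS1442 at 24 h (limma, adjusted p = 0.0147) on its brightest probe, while another probe gave -0.15. On the brightest probe the change lay between 0.24 and 0.46 over all alternatives, and the call was lost in 2 of the 16 fits.

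Versican itself, Vcan, was chosen after its values were seen, as the best known substrate of the family. Its values are therefore given without a test. At 24 h its brightest probe changed by -0.31 with WS1442, where its second kept probe, for another transcript, gave 0.07. With MeOH eluate at 24 h the brightest probe gave -0.19, and at 6 h its changes were -0.02 and -0.05.

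Among the activators and clearance receptors the convertase Pcsk5, one of the enzymes that remove propeptides from secreted proteases, fell by 1.21 (WS1442) and by 1.35 (MeOH eluate) at 24 h (SE 0.26, limma, adjusted p = 0.00345 and 0.00177). Its log2 signals there were 6.18 and 5.51 with DMSO, 4.74, 4.69 and 4.48 with WS1442, and 4.31, 4.43 and 4.75 with MeOH eluate. At such signals the offset of 50 in the normexp correction draws changes towards 0. The normexp correction gave -0.46 and -0.49 for this dim probe, and the call with WS1442 was lost without DMSO 24 h replicate 1. Lrp1, the endocytic receptor that clears Adamts4 and Adamts5, fell by 0.62 and 0.60 at 24 h (SE 0.08, limma, adjusted p = 7.54e-05 and 6.68e-05), and a dim second probe gave 0.23 and -0.37, not past the threshold.

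Sdc4, the cell surface proteoglycan syndecan-4, which binds Adamts5, rose at 6 h by 0.41 under WS1442 and 0.91 under MeOH eluate (SE 0.07, limma, adjusted p = 0.00339 and 6.56e-07). The log2 signals were 11.09 and 11.15 with DMSO, 11.53, 11.60 and 11.46 with WS1442, and 12.05, 11.96 and 12.06 with MeOH eluate, and at 24 h the changes were -0.05 and 0.04. Without DMSO 6 h replicate 1 the call with WS1442 was lost. Timp4, an inhibitor of metalloproteases, fell by 0.62 and 0.53 at 6 h (limma, adjusted p = 0.0419 and 0.0384). Its WS1442 samples overlapped with DMSO, and without DMSO 6 h replicate 1 the changes were -0.37 and -0.28 and neither was called. With 1 sample left out, the call with WS1442 was lost in 12 of 16 fits and that with MeOH eluate in 3.

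**Figure D4:**
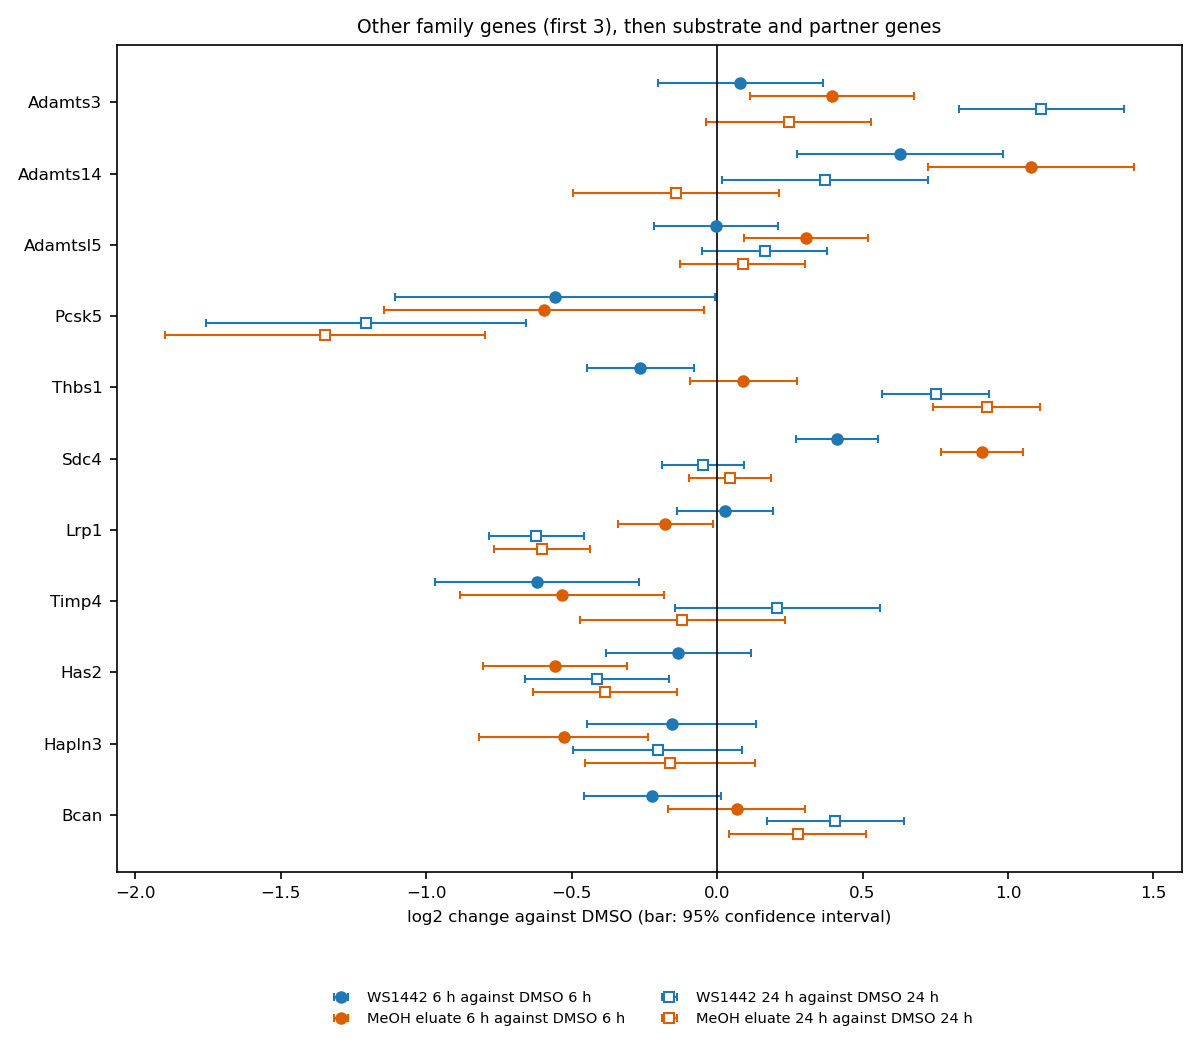
Log2 change from DMSO of the same time (x axis) for 3 other family genes and 8 substrate and partner genes (y axis), with 95% confidence intervals from limma as bars, filled circles for 6 h and open squares for 24 h, blue for WS1442 and orange for MeOH eluate. Sdc4 and Adamts14 lie to the right at 6 h, Thbs1 to the right and Lrp1 and Pcsk5 to the left at 24 h, and Adamts3 stands out with WS1442 at 24 h at 1.12.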

How the data were processed

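Cy3-labelled RNA was hybridised to 1-colour Agilent arrays by the authors, and the deposited scanner files hold an intensity per spot, in arbitrary units, corrected for background within the array. A second deposited table holds intensity values that the authors quantile normalized, and all 16 of its columns correlated best with their own array. It served as an alternative. Control spots were left out, spots marked non-uniform (3 to 25 per array) were set missing, spots of a probe were averaged, and log2 values were quantile normalized in R 4.3.3 with limma 3.58.1, as in the methods of the study. A probe was kept where some group had it well above background in each of its samples, and the brightest kept probe stood for a gene. A total of 12642 probes carried a symbol, 29853 were named from their accession through RefSeq, and 17778 kept the accession.

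A limma model of 6 group means (eBayes with trend, 10 residual degrees of freedom) was fitted over all genes, with Benjamini-Hochberg adjustment, and tested on simulated data. The precision is limited by the number of arrays and, for dim probes, by background, and no counts stand behind an intensity. The study names Student's t-test and ANOVA for its statistics, and for the arrays cites a description of quantile normalization without saying which test gave the p-values. Alternatives covered scaling, background, filter, probe choice, source table, test, blocks, call rule and each sample left out. The members and lists were chosen with earlier results of these data known, so the p-values given for genes of the lists are descriptive. Named are all members, up to 8 called genes of each other list by largest change, and the 5 genes most like the brightest Adamts9 probe. The main model did not pair samples by replicate number. Deviations of same-numbered samples correlated between -0.235 and 0.303. Differently numbered samples were not set beside them, so whether the numbers pair the samples was not settled.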

Additional observations from a re-analysis of the deposited data

Results flagged for a closer look

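Each result below is an effect against DMSO that differed between 24 h and 6 h, as the log2 change at 24 h minus that at 6 h. The times lie on different slides, each with its own DMSO samples. The results of members were flagged by the same interaction test as those of the other genes. Since the members were chosen with earlier results of these data known, the flag is no support, and no p-value is given. Among the members the difference was -0.80 for Adamts1 with MeOH eluate. It was 1.48 with WS1442 for the Adamts9 probe ENSMUST00000136751, on which WS1442 6 h replicate 1 was not well above background. No such difference is given for this probe with MeOH eluate, since its signal at 6 h has only a bound.

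In the other genes the difference also passed the interaction test of limma with Benjamini-Hochberg adjustment. These genes were named for the largest called changes in the same data, from lists chosen with earlier results known. Their p-values are therefore descriptive. It was 1.04 for Adamts3 with WS1442 (adjusted p = 0.00425) and -1.22 for Adamts14 with MeOH eluate (adjusted p = 0.0045). Thbs1 gave 1.02 under WS1442 and 0.84 under the eluate (adjusted p = 0.000493 and 0.000579). Sdc4 gave -0.46 and -0.87 (adjusted p = 0.00723 and 4.71e-05), and Lrp1 -0.65 and -0.42 (adjusted p = 0.00299 and 0.0269), in the same order. With WS1442, Timp4 gave 0.83 (adjusted p = 0.0325) and Bcan 0.63 (adjusted p = 0.018). The limits given above hold here too. The Timp4 samples with WS1442 at 6 h overlapped with DMSO, and other probes of Bcan and Lrp1 had the opposite sign with WS1442 at 24 h.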

How the results depend on the processing

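No member change that was called in the text's fit took the other sign under an alternative. Some that were not called did, among them Adamtsl1 with WS1442 at 6 h, in 4 of 25 alternatives. By size, 677 member values moved by less than the spread between replicates and 23 by more. Many of the 677 could hardly move. The fit within a time and the t-test use the same group means, and most samples left out belonged to neither group of a comparison. These numbers are therefore no measure of stability. The counts of calls moved as well, and the cause of their moves was not tested. In the order WS1442 at 6 h, MeOH eluate at 6 h, WS1442 at 24 h, MeOH eluate at 24 h, the counts were 2, 4, 1 and 2 for members, 1, 2, 1 and 0 for other family genes and 2, 6, 11 and 7 for substrate and partner genes. Counts are by brightest probe unless another choice is named. The limits of the study gave 0, 2, 0 and 0 members (1, 2, 0 and 1 on any kept probe, where the adjusted calls were 2, 4, 2 and 2, both added after seeing the data), 0 and 1 other family genes at 6 h, and 0, 0, 1 and 1 partners, and Student's t-test at those limits, chosen after seeing the data, gave the same counts. The adjusted t-test gave 0, 1, 0 and 1 members, 0 other family genes in the first 3 comparisons and 0 partners in all 4.

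With normexp correction and its offset of 50, other family genes gave 0 and 1 at 6 h and members 2 between treatments at 24 h. Scaling to the 75th percentile gave 1 other family gene with MeOH eluate at 6 h. Without a filter there were 1 member, 0 other family genes and 1 partner with WS1442 at 6 h, 1 other family gene with MeOH eluate at 6 h, and 1 and 2 members for the effect at 24 h minus that at 6 h (0 and 1 in the text's fit). With probes above background on all 16 arrays 4 other family genes were called with MeOH eluate at 6 h. The mean of probes gave 3 and 2 other family genes at 24 h and 2 members for the MeOH eluate effect difference. With the replicate block there were 1 and 2 members, 0 and 1 other family genes and 1 partner with WS1442 at 6 h. Fits within a time gave 0, 2 and 2 members in the first 3 comparisons, 0, 1 and 3 other family genes, and 1 partner with WS1442 at 6 h. Between treatments, the limits of the study and both forms of t-test gave 0 members at both times, and the limits gave 0 for the MeOH eluate effect difference.

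With each sample left out in turn, members ranged from 0 to 2, 2 to 5, 1 to 2 and 2 to 3, from 2 to 4 and 0 to 2 between treatments, and from 0 to 1 and 1 to 2 for the effect differences. Other family genes ranged from 0 to 1, 1 to 4, 1 to 3 and 0 to 1, and partners from 0 to 3, 2 to 8, 5 to 11 and 5 to 7. Without DMSO 6 h replicate 1 the members with WS1442 and MeOH eluate at 6 h were 0 and 2. Under scaling to the 75th percentile the share of higher calls among all genes moved from 74.2% to 84.6% with WS1442 at 6 h, from 50.6% to 39.0% with WS1442 at 24 h, and from 38.3% to 20.3% between treatments at 6 h. The few DMSO samples and dim probes limit the precision.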
